A study of Mus musculus with 9 samples.

Results

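The G protein-coupled receptor kinases Grk2, Grk3, Grk4, Grk5 and Grk6 and the beta-arrestins Arrb1 and Arrb2 were followed in cardiac transcriptomes of mice. The members are all rows with 1 of these 7 gene names in the tables of reads and of TPM (reads per transcript length, scaled to a fixed sum), which makes 7 of 41710 genes and 53 of 127558 transcripts. The 9 libraries were from whole hearts of male FVB/N mice aged 8 months, with n = 3 hearts of RKIP-transgenic mice (Tg-RKIP), n = 3 hearts labelled GRK2-transgenic (Tg-GRK2) and n = 3 hearts of non-transgenic FVB/N mice (FVB). The RKIP transgene is driven by the alpha-MHC promoter, which is active in cardiomyocytes, and RKIP (raf kinase inhibitor protein) is the product of Pebp1. The promoter and the construct of the GRK2 transgene are not given in the sources used here. In these bulk libraries, fewer cells of a type and less RNA per cell cannot be told apart.

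GRKs phosphorylate G protein-coupled receptors that are occupied by an agonist, and beta-arrestins then bind the phosphorylated receptor, uncouple it from its G protein and link it to clathrin and the adaptor AP2 for endocytosis. Grk2 and Grk3 form a subfamily that is brought to the membrane by G protein beta-gamma subunits, whereas Grk4, Grk5 and Grk6 form a subfamily that attaches to the membrane by lipid anchors or basic residues. In the heart, the GRK2 and GRK5 proteins are best known for the desensitisation of beta-adrenoceptors, and RKIP that is phosphorylated by protein kinase C binds and inhibits the GRK2 protein.

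The coding sequence differs between transcripts of several members, and the sequences below mark the differences on which the transcript results turn. They were taken from GENCODE M21 by Ensembl transcript identifier, and all 53 member transcripts were found there with the exon lengths of the deposited table. Positions are those of the deposited table, for which the submitters' processing notes name build GRCm39. Capitals mark bases that the other transcript of the pair lacks, and lower case marks the neighbouring bases of the same transcript, 5′ to 3′. Grk2 lies on the minus strand, and transcript Grk2_5 (ENSMUST00000088737, 21 exons, 689 codons) starts its coding sequence in exon 1 at chr19:4355984-4356042, while Grk2_4 (ENSMUST00000025791, 22 exons, 647 codons) lacks these 59 bases and has its start codon in exon 3. Arrb1 lies on the plus strand, and transcript Arrb1_5 (ENSMUST00000098266, 418 codons) holds a coding exon of 24 bases at chr7:99246243-99246266. Arrb1_6 (ENSMUST00000179755, 419 codons) holds 27 other bases at the same place of its coding sequence, within chr7:99247504-99247697. Arrb2 lies on the plus strand, and transcript Arrb2_7 (421 codons) holds 45 coding bases at chr11:70327157-70327201 that Arrb2_6 (406 codons) lacks.
Grk2_5: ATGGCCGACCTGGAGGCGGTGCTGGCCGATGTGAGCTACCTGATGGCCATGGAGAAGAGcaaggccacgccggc
Arrb1_5: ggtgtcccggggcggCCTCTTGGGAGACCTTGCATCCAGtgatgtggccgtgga
Arrb1_6: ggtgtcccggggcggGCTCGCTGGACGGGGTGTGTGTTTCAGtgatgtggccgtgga
Arrb2_7: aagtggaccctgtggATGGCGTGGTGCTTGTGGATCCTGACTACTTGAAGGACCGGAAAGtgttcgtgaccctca

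The libraries held 25458108 to 33447654 reads on transcripts, and the 7 members took 0.0271%, 0.0265% and 0.0269% of them in Tg-RKIP and between 0.0157% and 0.0173% in the other 6 libraries. The transgenes were checked first. Pebp1 stood at 16371, 15967 and 16257 TPM in Tg-RKIP, at 327, 319 and 316 TPM in the group labelled Tg-GRK2 and at 324, 330 and 321 TPM in FVB, so the Tg-RKIP label is borne out. Grk2, summed over its transcripts, was not higher in the group labelled Tg-GRK2 than in FVB (26.4, 24.9 and 30.5 TPM against 27.9, 25.9 and 27.4 TPM), so their label could not be checked by the gene sum, and these libraries are named by it below. Mitochondrially encoded genes took 11.7 ± 0.156% of the reads in Tg-RKIP (mean ± SD, n = 3), 22.6 ± 0.299% in the group labelled Tg-GRK2 and 23.1 ± 0.158% in FVB. The scaling of the libraries therefore matters for every comparison with Tg-RKIP. With TMM factors (trimmed mean of M-values), which set the bulk of genes level, the median log2 fold change of all genes between Tg-RKIP and FVB was 0.0085, but it was 0.18 when scaled to the reads outside mitochondrially encoded genes, 0.38 when scaled to library size and 0.43 on the log2(TPM + 0.1) scale. Among the genes called, 49.8% were higher in Tg-RKIP with TMM factors, 64.8% without the mitochondrially encoded reads, 78.6% with library size and 82% on the TPM scale. Fold changes below are of TMM-normalised read counts unless another scale is named, p-values come from the quasi-likelihood test of edgeR and were adjusted over 15504 genes after Benjamini and Hochberg, and a gene is called at an adjusted p under 0.05.

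In FVB hearts Grk2 was the most abundant GRK per transcript length, and its level of 27.1 ± 1.05 TPM was well above that of Grk5 at 8.87 ± 0.00737 TPM and of Grk6 at 8.37 ± 0.312 TPM. The beta-arrestins followed, with Arrb2 at 6.75 ± 0.425 TPM and Arrb1 at 6.08 ± 0.156 TPM. Grk3 stood at 5.32 ± 0.139 TPM and Grk4, a kinase best known from testis and kidney, at 1.31 ± 0.416 TPM, with only 36 to 50 reads a library. No neighbours in this order overlapped among the 3 FVB libraries, although Grk5 and Grk6 lay only 0.503 TPM apart. In Tg-RKIP the order was Grk2, Grk5, Arrb2, Grk6, Arrb1, Grk3 and Grk4, again with no overlap between neighbours. For the group labelled Tg-GRK2, Grk6 (9.55 ± 0.551 TPM) stood above Grk5 (8.68 ± 0.272 TPM), and Arrb2 (7.36 ± 0.564 TPM) and Arrb1 (6.94 ± 0.379 TPM) overlapped.

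**Figure D1:**
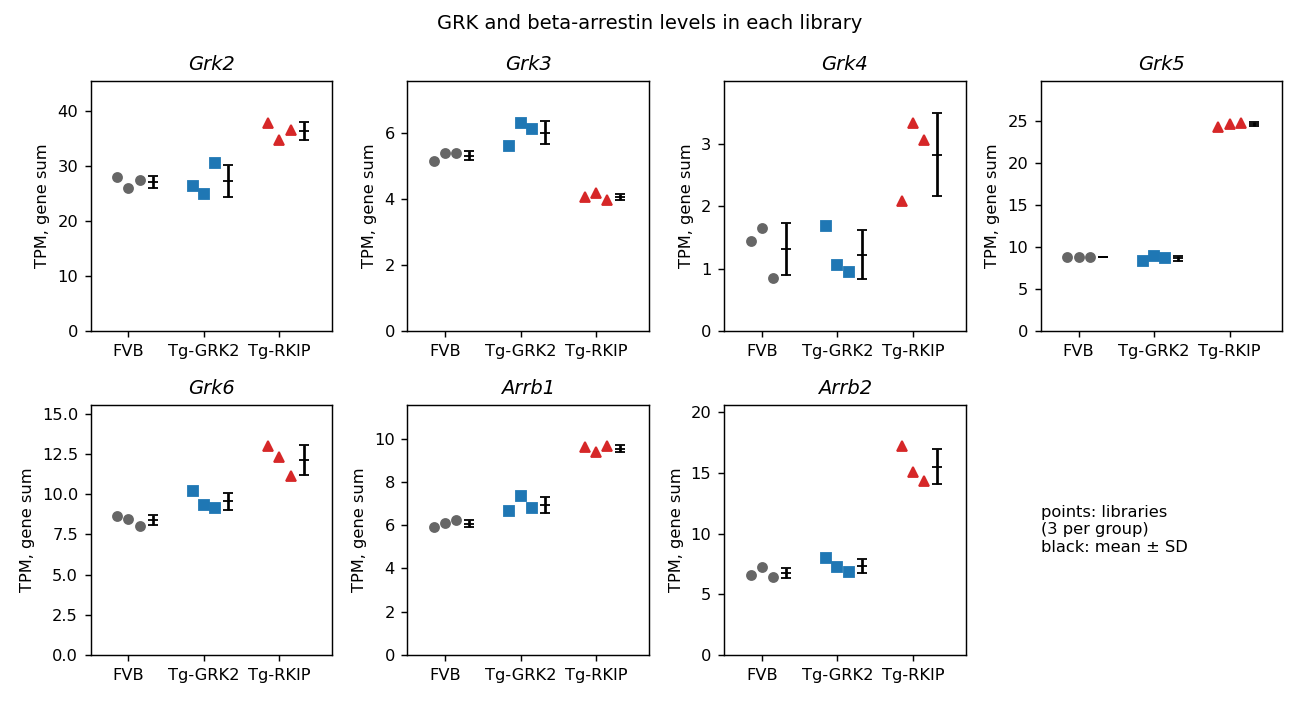
Transcript level of each member, in TPM summed over the transcripts of the gene, in the 3 libraries of FVB, of the group labelled Tg-GRK2 and of Tg-RKIP, with a black bar for mean ± SD and an axis of its own from 0 for each gene. Grk5 stands at 24.4 to 24.8 TPM in Tg-RKIP and at 8.37 to 8.90 TPM in the other 6 libraries, and Grk3 is the 1 member whose Tg-RKIP libraries lie below those of both other groups.

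The first comparison asked whether cardiac expression of RKIP, an inhibitor of the GRK2 protein, went along with altered transcript levels of the GRKs and beta-arrestins. Against FVB, Tg-RKIP hearts had higher Grk5, Arrb2 and Arrb1 and lower Grk3 under each of the 5 scalings, whereas Grk2 was higher only when the libraries were scaled to library size, to reads outside mitochondrially encoded genes or as TPM. With TMM factors 5 of 7 members were called, 4 higher and 1 lower, while 73.9% of all genes tested were called, 36.8% higher and 37.1% lower. The share of members called is thus close to that of all genes. The median log2 fold change of the members was 0.30, beside 0.0085 for all genes.

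Grk2, the kinase whose activity RKIP inhibits, had 1645, 1535 and 1641 normalised read counts in Tg-RKIP and 1512, 1633 and 1590 in FVB. These groups overlapped, and the log2 fold change was 0.02 (SE 0.0376, 95% interval -0.06 to 0.10, adjusted p = 0.604). On the TPM scale, on which 7 of 7 members and 78.8% of all genes did not overlap, these groups stood apart, with 37.8, 34.6 and 36.5 TPM in Tg-RKIP and 27.9, 25.9 and 27.4 TPM in FVB. The TPM level in Tg-RKIP was 1.34 ± 0.0589 times the FVB mean (n = 3), and limma on log2(TPM + 0.1) gave a log2 fold change of 0.42 with an adjusted p of 0.000241, beside the median of 0.43 of all genes on that scale. Scaled to library size, the log2 fold change of Grk2 was 0.40 (adjusted p = 2.88e-09) beside the median of 0.38 of all genes. Grk2 thus moved with the bulk of genes under each scaling.

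Grk3, the close relative of Grk2, had 418, 423 and 407 normalised read counts in Tg-RKIP and 701, 730 and 742 in FVB. All 3 Tg-RKIP libraries lay below all FVB libraries. The log2 fold change was -0.80 (SE 0.0515, adjusted p = 5.77e-12), and it remained negative under every alternative, between -0.84 and -0.32. In TPM, Grk3 was at 4.07 ± 0.0946 in Tg-RKIP and at 5.32 ± 0.139 in FVB.

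Grk5 had the largest difference among the members. It had 2488, 2566 and 2573 normalised read counts in Tg-RKIP and 1197, 1241 and 1231 in FVB, without overlap. The log2 fold change was 1.06 (SE 0.0314, 95% interval 0.99 to 1.12, adjusted p = 5.59e-18), with a range of 1.02 to 1.46 over the alternatives. In TPM the level of 24.6 ± 0.233 in Tg-RKIP was 2.78 ± 0.0262 times the FVB mean. Zfp950, which lies antisense to Grk5, shares 0 exonic bases with it and had 190 to 305 reads a library, beside 1021 to 3496 reads of Grk5.

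Grk6, of the same subfamily as Grk5, had 579, 556 and 512 normalised read counts in Tg-RKIP and 507, 508 and 497 in FVB. These values did not overlap, but the log2 fold change of 0.12 (SE 0.0594, 95% interval 0.0013 to 0.25) did not pass the threshold (adjusted p = 0.0636), though it did without Tg-RKIP replicate 3 (log2 fold change 0.17, adjusted p = 0.0205) or Tg-GRK2 replicate 2 (0.13, adjusted p = 0.0493). On the TPM scale Grk6 was called, at 12.1 ± 0.929 in Tg-RKIP against 8.37 ± 0.312 in FVB, with a log2 fold change of 0.53 beside the median of 0.43 of all genes. Grk4 had 57.4, 68.3 and 63.7 normalised read counts in Tg-RKIP and 47.6, 51.4 and 42.7 in FVB. Its log2 fold change of 0.42 (SE 0.166) was called (adjusted p = 0.028), but the call was lost with DESeq2 (adjusted p = 0.0988) and when Tg-RKIP replicate 2 or 3 or FVB replicate 1 or 3 was left out (adjusted p between 0.0583 and 0.113).

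Arrb2, which binds many receptors and carries them to clathrin-coated pits, had 362, 341 and 357 normalised read counts in Tg-RKIP and 196, 233 and 215 in FVB. Both groups stood apart, and the log2 fold change was 0.71 (SE 0.0771, adjusted p = 3.37e-08). Arrb1, the other widely expressed beta-arrestin, had 1066, 1015 and 1053 normalised read counts in Tg-RKIP and 833, 872 and 827 in FVB, with a log2 fold change of 0.30 (SE 0.0409, adjusted p = 8.7e-07). In TPM, Arrb2 was at 15.5 ± 1.48 in Tg-RKIP and 6.75 ± 0.425 in FVB, and Arrb1 was at 9.55 ± 0.149 and 6.08 ± 0.156. With a required fold of 1.5 or more, 2 of the 7 members were called, Grk5 and Grk3, where 23.6% of all genes were called. Counting members whose normalised read counts did not overlap between Tg-RKIP and FVB gave 6 of 7, all but Grk2, where 75.7% of all genes did not overlap.

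**Figure D2:**
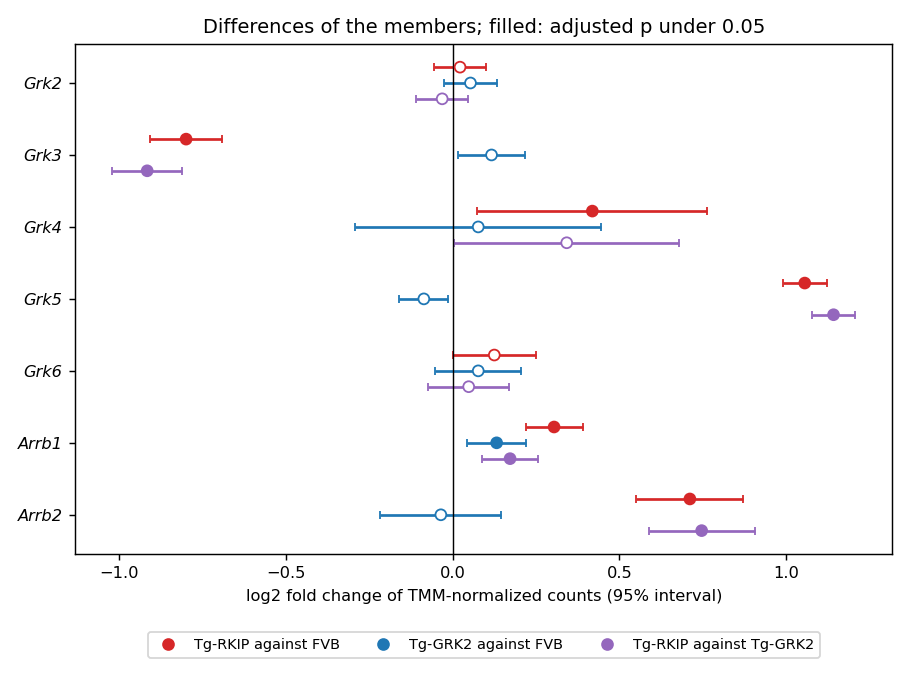
Log2 fold change of each member, in TMM-normalised read counts with its 95% interval, in the 3 comparisons. Filled points have an adjusted p under 0.05, and Grk5 at 1.06 and 1.14 and Grk3 at -0.80 and -0.92 in the comparisons of Tg-RKIP with FVB and with Tg-GRK2 lie farthest from 0, while all Tg-GRK2 against FVB points lie between -0.09 and 0.13.

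**Figure D3:**
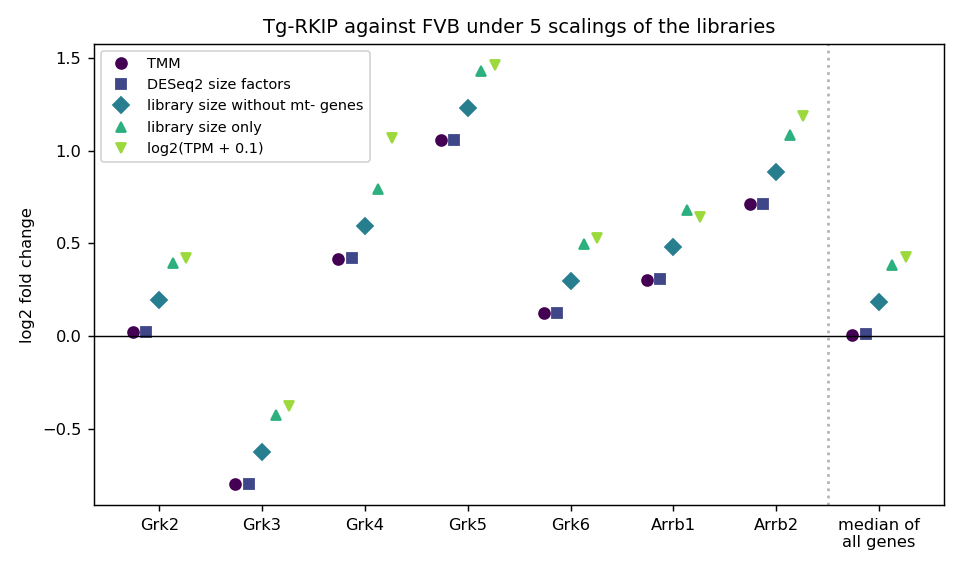
Log2 fold change of each member between Tg-RKIP and FVB under 5 scalings of the libraries, with the median of all genes under the same scaling on the right. The points of Grk2 rise from 0.02 with TMM factors to 0.40 with library size and 0.42 in TPM beside medians of 0.0085, 0.38 and 0.43, whereas Grk3 stays below 0 and Grk5 above 1 under all 5.

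The group labelled Tg-GRK2 was compared with the same 3 FVB libraries, so this comparison and the first share their controls. The members differed little, and only Arrb1 was called among the 7, where 24.5% of all genes tested were called. Grk2 had 1592, 1625 and 1696 normalised read counts in the group labelled Tg-GRK2 and 1512, 1633 and 1590 in FVB. These groups overlapped, and the log2 fold change was 0.05 (SE 0.0384, adjusted p = 0.354) with a 95% interval of -0.03 to 0.13. In TPM the gene sum was 1.01 ± 0.107 times the FVB mean.

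Arrb1 had 901, 904 and 968 normalised read counts in the group labelled Tg-GRK2 and 833, 872 and 827 in FVB, without overlap. The log2 fold change of 0.13 (SE 0.0429, adjusted p = 0.0284) lost its call with DESeq2 (adjusted p = 0.0516) and without Tg-GRK2 replicate 3, FVB replicate 1 or FVB replicate 3 (adjusted p between 0.0886 and 0.176). The other 5 members had log2 fold changes of 0.12 for Grk3 (adjusted p = 0.0825), 0.08 for Grk4, -0.09 for Grk5 (adjusted p = 0.0845), 0.08 for Grk6 and -0.04 for Arrb2. Grk5 had 1132, 1137 and 1186 normalised read counts, all below the FVB libraries, and together with Arrb1 it made 2 of 7 members without overlap, where 37.1% of all genes did not overlap. The 95% interval of its log2 fold change was -0.16 to -0.01, and in TPM the Grk5 values of the groups overlapped.

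Between Tg-RKIP and the group labelled Tg-GRK2, 4 of 7 members were called, 3 higher and 1 lower in Tg-RKIP, where 74.5% of all genes tested were called, 37.9% higher and 36.6% lower. Grk5 was higher in Tg-RKIP by a log2 fold change of 1.14 (adjusted p = 1.24e-18), Arrb2 by 0.75 (adjusted p = 1.29e-08) and Arrb1 by 0.17 (adjusted p = 0.000553), and Grk3 was lower (log2 fold change -0.92, adjusted p = 3.06e-13). These 4 members and Grk4 did not overlap between the groups, which makes 5 of 7 where 76.4% of all genes did not overlap, and in TPM 7 of 7 did not, where 78.5% of all genes did not. Grk2 had a log2 fold change of -0.03 (95% interval -0.11 to 0.05, adjusted p = 0.456), which became 0.33 with library size and 0.42 on the TPM scale, and the corresponding medians of all genes were 0.38 and 0.40. All 7 members were called under library size, where 80.3% of all genes were, and on the log2(TPM + 0.1) scale, where 80.4% of all genes were, each time with Grk3 lower and the others higher in Tg-RKIP.

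The make-up of the kinase pool does not depend on the scaling of the libraries, since members are compared within a library. The 5 GRK genes summed to 79.9 ± 1.15 TPM in Tg-RKIP, 52.7 ± 2.49 TPM in the group labelled Tg-GRK2 and 50.9 ± 0.953 TPM in FVB. Grk2 took 53.1 ± 1.42% of this sum in FVB and 45.4 ± 1.44% in Tg-RKIP. Grk5 took 17.0%, 17.7% and 17.6% in the FVB libraries and 30.0%, 31.2% and 31.2% in the Tg-RKIP libraries. Grk3 went the other way, with 10.4 ± 0.462% in FVB and 5.10 ± 0.156% in Tg-RKIP, while the shares of Grk6 (16.4 ± 0.484% and 15.2 ± 1.03%) overlapped. The shares in the group labelled Tg-GRK2 were 51.6 ± 3.01% for Grk2, 16.5 ± 0.993% for Grk5, 11.4 ± 0.929% for Grk3 and 18.1 ± 1.54% for Grk6. The 2 beta-arrestins summed to 25.1 ± 1.52 TPM in Tg-RKIP, 14.3 ± 0.563 TPM in the group labelled Tg-GRK2 and 12.8 ± 0.430 TPM in FVB, and Arrb2 took 61.9 ± 2.16%, 51.4 ± 2.66% and 52.6 ± 1.76% of the sum.

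**Figure D4:**
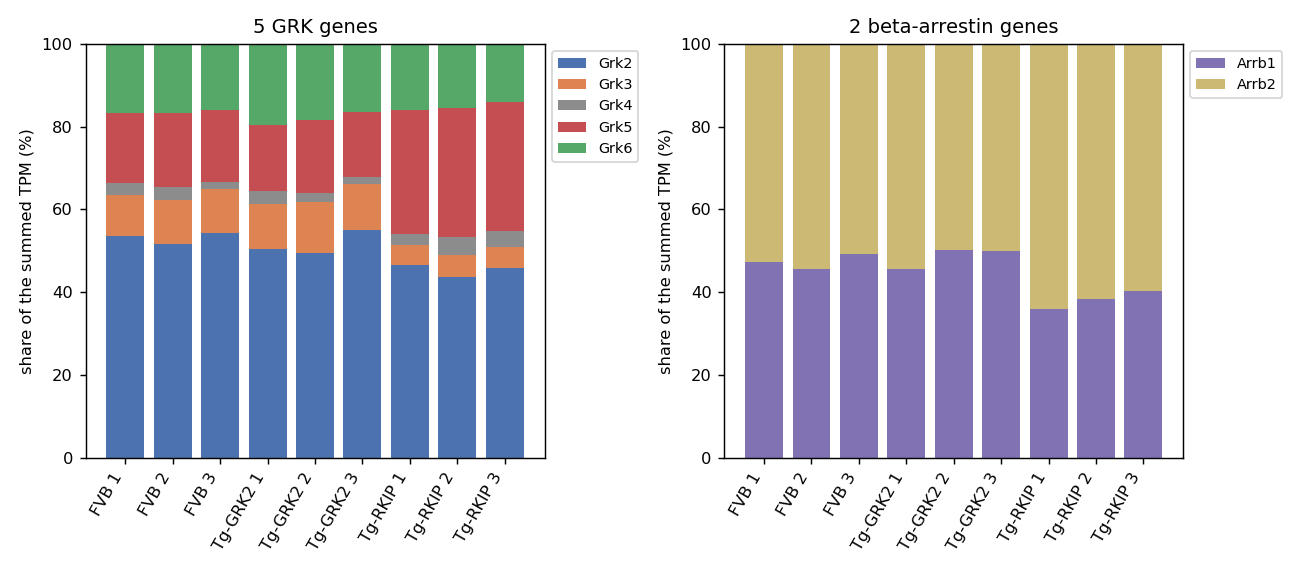
Share of each gene, in percent of the summed TPM of the 5 GRK genes (left) and of the 2 beta-arrestin genes (right), in each of the 9 libraries. The share of Grk5 is 30.0% to 31.2% in the 3 Tg-RKIP libraries and 15.8% to 17.7% in the other 6, and the share of Arrb2 is 59.8% to 64.1% in Tg-RKIP and 49.7% to 54.5% elsewhere.

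Ratios within a library were compared by exact two-sided permutation tests, which cannot go below p = 0.1 with 3 libraries against 3, so that none of the 12 tests could pass 0.05 and none had an adjusted p below 0.2. The TPM ratio of Grk5 to Grk2 was 0.645, 0.713 and 0.680 in Tg-RKIP and 0.318, 0.343 and 0.324 in FVB. Values of Tg-RKIP were 2.07 times higher (log2 difference 1.05, SE 0.0538, exact p = 0.1, higher in 3 of 3 libraries). The ratio of Grk3 to Grk2 was 0.107, 0.121 and 0.109 in Tg-RKIP and 0.185, 0.208 and 0.197 in FVB, a log2 difference of -0.81 without overlap (exact p = 0.1). The ratio of Grk6 to Grk2 overlapped between the groups (log2 difference 0.11, exact p = 0.3). The ratio of Arrb1 to Arrb2 was 0.560, 0.623 and 0.672 in Tg-RKIP and 0.899, 0.841 and 0.968 in FVB, a log2 difference of -0.55 without overlap (exact p = 0.1). Between the group labelled Tg-GRK2 and FVB all 4 ratios overlapped (exact p between 0.2 and 0.8). Against Tg-GRK2, the log2 differences of Tg-RKIP were 1.09, -0.98, -0.07 and -0.61 in the same order.

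At the level of transcripts, 43 of the 53 member transcripts held reads and 21 passed the expression filter among 34991 transcripts tested. In Tg-RKIP against FVB 4 of the 21 were called, 2 higher and 2 lower, where 34% of all transcripts were called, 15% higher and 19% lower. In Tg-GRK2 against FVB 1 was called, where 3.42% of all were, 1.67% higher and 1.75% lower. Between Tg-RKIP and Tg-GRK2 5 were called, 3 higher and 2 lower, where 37% of all were, 17% higher and 20% lower. Grk5_2 (ENSMUST00000003313, 590 codons) held 98.7% of the TPM of Grk5 and Grk3_3 (ENSMUST00000065167, 688 codons) held 97.7% of that of Grk3. Their log2 fold changes between Tg-RKIP and FVB were 1.09 (adjusted p = 8.87e-08) and -0.77 (adjusted p = 1.33e-05), so the gene sums of Grk5 and Grk3 rest on 1 transcript each.

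The 2 main transcripts of Grk2 moved in opposite directions. Grk2_4, which held 61.3% of the TPM of the gene, had 1334, 1595 and 1266 reads in Tg-RKIP, 910, 938 and 1015 reads in the group labelled Tg-GRK2 and 892, 1080 and 934 reads in FVB. Its log2 fold change between Tg-RKIP and FVB was 0.20 (adjusted p = 0.00955), and its TPM level was 1.498 ± 0.0586 times the FVB mean. Grk2_5, the transcript of 689 codons whose first coding bases are shown above, had 233, 339 and 250 reads in Tg-RKIP, 503, 499 and 638 reads in the group labelled Tg-GRK2 and 280, 420 and 306 reads in FVB. Against FVB it fell in Tg-RKIP (log2 fold change -0.62, adjusted p = 0.00387), although the call was lost with scaling to library size (log2 fold change -0.28, adjusted p = 0.0899).

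In the group labelled Tg-GRK2, Grk2_5 was the 1 member transcript that was called, and it was higher than in FVB. Its log2 fold change was 0.62 (SE 0.114, adjusted p = 0.0286), and its TPM level of 8.26 ± 0.494 was 1.59 ± 0.0948 times the FVB mean of 5.21. The call was lost in 7 of the 9 fits that left out 1 library (adjusted p up to 0.107), all but those without Tg-RKIP replicate 1 or FVB replicate 2, while the log2 fold change stayed between 0.53 and 0.74. Grk2_4 was not called in this comparison (log2 fold change -0.11, adjusted p = 0.323). Between Tg-RKIP and Tg-GRK2 Grk2_5 was lower in Tg-RKIP (log2 fold change -1.24, adjusted p = 7.99e-05) and Grk2_4 was higher (0.31, adjusted p = 0.000978).

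The share of Grk2_5 in the reads of both transcripts is independent of the scaling of the libraries, and it was chosen for description after the values had been seen. It was 14.9%, 17.5% and 16.5% in Tg-RKIP, 35.6%, 34.7% and 38.6% in the group labelled Tg-GRK2 and 23.9%, 28.0% and 24.7% in FVB. None of the 3 groups overlapped with another, and the exact two-sided permutation test gave p = 0.1 in each comparison, the smallest p that 3 against 3 allow. Only 92 of the 3133 windows of 50 bases (the read length) in Grk2_4 and 192 of the 3327 in Grk2_5 occur in no other transcript of the gene, and how the authors divided reads between transcripts is not given in the sources used here. The error of that division is not part of the p-values. Grk2_6 (ENSMUST00000235681), annotated as subject to nonsense-mediated decay, had 90, 95 and 69 reads in Tg-RKIP, 0, 0 and 8 in the group labelled Tg-GRK2 and 55, 26 and 0 in FVB. It was not called by edgeR's test of transcript levels in any comparison (adjusted p = 0.0774 between Tg-RKIP and Tg-GRK2), whereas between Tg-RKIP and Tg-GRK2 DESeq2 (adjusted p = 0.0105) and the test of usage per transcript (adjusted p = 0.0259) called it higher in Tg-RKIP. The usage test per transcript called neither Grk2_4 nor Grk2_5 against FVB in either group (Grk2_5 in Tg-RKIP, adjusted p = 0.379). Between Tg-RKIP and Tg-GRK2 it called Grk2_5 lower in Tg-RKIP (adjusted p = 0.0224) and did not call Grk2_4 (adjusted p = 0.533).

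The division of Arrb1 reads between its transcripts varied within Tg-RKIP and within FVB. Arrb1_6, with the 27 bases shown above, had 440, 518 and 76 reads in Tg-RKIP, 26, 21 and 16 in the group labelled Tg-GRK2 and 300, 364 and 3 in FVB. It thus took 42.1% and 43.0% of the reads of Arrb1_5 and Arrb1_6 in FVB replicates 1 and 2, and 0.437% in FVB replicate 3. Of the 50-base windows, 0 of the 7083 in Arrb1_5 and 48 of the 7086 in Arrb1_6 occur in no other transcript of the gene. Windows that span the 24 bases of Arrb1_5 shown above are absent from Arrb1_6 but occur in another transcript of Arrb1. Neither transcript was called by edgeR between any groups (Arrb1_6 had an adjusted p of 0.0619 between Tg-RKIP and Tg-GRK2, where DESeq2 called it higher in Tg-RKIP with an adjusted p of 0.0114), while the gene sum of Arrb1 varied little within a group.

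The transcripts of Arrb2 and Grk6 were assigned unevenly in the same way. Grk6_3 (ENSMUST00000001115, 589 codons) had 223, 444 and 168 reads in Tg-RKIP, 282, 118 and 348 in the group labelled Tg-GRK2 and 12, 312 and 268 in FVB. Arrb2_9 (ENSMUST00000102564, 410 codons) had 57, 189 and 189 reads, 0, 110 and 89 reads and 20, 88 and 60 reads in the same order. Arrb2_6 (ENSMUST00000084954, 406 codons) is the exception that followed the groups, with 110, 210 and 115 reads in Tg-RKIP, 0 reads in all 3 libraries labelled Tg-GRK2 and 14, 0 and 0 reads in FVB. It was called between Tg-RKIP and Tg-GRK2 (adjusted p = 0.0212), but the call was lost without any 1 of the 3 Tg-RKIP libraries (adjusted p between 0.0509 and 0.0558) and with the replicate number as a block (adjusted p = 0.0538). Against FVB it was not called by edgeR (adjusted p = 0.0879) but was called by DESeq2 (adjusted p = 0.0137) and by edgeR without FVB replicate 1 (adjusted p = 0.00242), the 1 FVB library with reads of it. The bases that Arrb2_6 lacks are shown above in Arrb2_7. The other transcripts of Grk4, Grk6, Arrb1 and Arrb2 that were tested were not called by edgeR in any comparison, and DESeq2 called Grk6_7 lower in Tg-RKIP than in Tg-GRK2 (adjusted p = 0.0469). All 5 transcripts of Grk4 had 32 reads or fewer in each library. The test of transcript usage, which compares the transcripts of a gene with one another, called 0 of 5 members in Tg-RKIP against FVB (33.4% of 8858 genes called), 0 of 5 in Tg-GRK2 against FVB (4.56%) and 3 of 5 between Tg-RKIP and Tg-GRK2 (39.3%), namely Grk2, Arrb1 and Arrb2. At an unadjusted p under 0.05 the first 2 counts were 0 and 1, the 1 being Arrb1. The share of all genes at that unadjusted threshold was not computed. In simulated data this test gave low unadjusted p-values to unchanged genes too often and recovered few of the changed genes, so its calls are a description and a gene without a call is not shown to be unchanged.

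**Figure D5:**
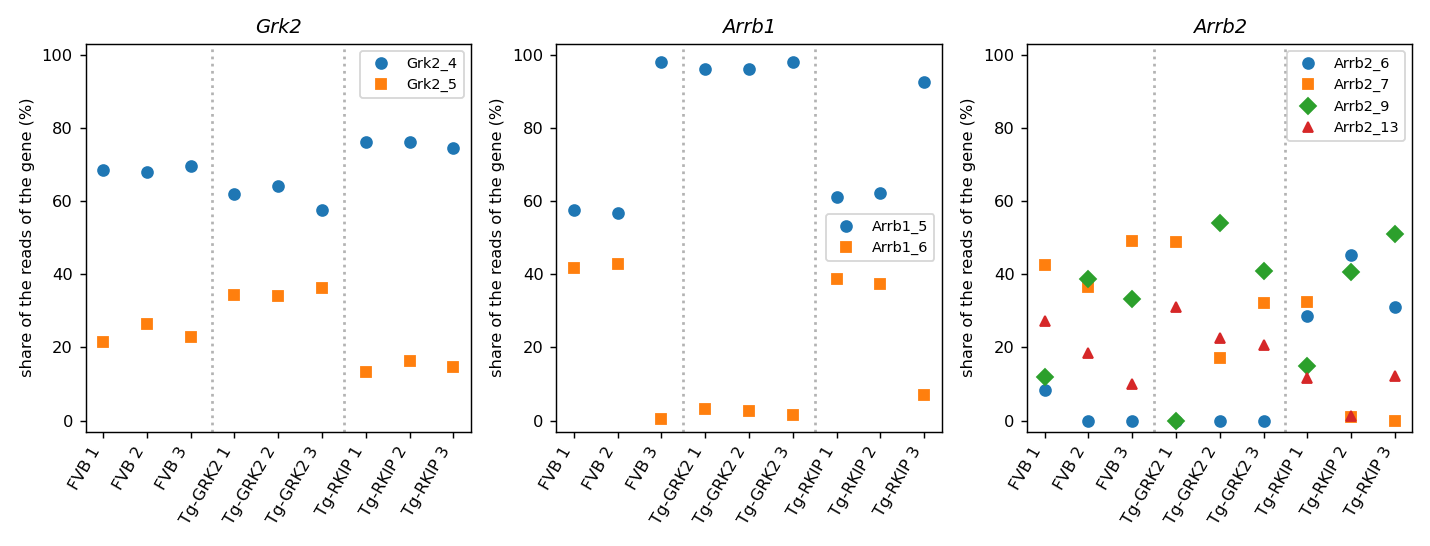
Share of single transcripts in the reads of their gene, in percent, in each of the 9 libraries, for Grk2 (left), Arrb1 (middle) and Arrb2 (right), with dotted lines between the groups. The shares of Grk2_4 and Grk2_5 are alike within each group, whereas Arrb1_6 falls to near 0 in FVB replicate 3 and in the group labelled Tg-GRK2, and of the Arrb2 transcripts Arrb2_6 lies at 0% in all 3 libraries labelled Tg-GRK2 and above all other groups in Tg-RKIP, while the others scatter within groups.

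The other genes of the pathway were described by lists. With TMM factors, 73.9% of all genes tested were called between Tg-RKIP and FVB, 36.8% higher and 37.1% lower. In Tg-GRK2 against FVB 12.2% were called higher and 12.2% lower. These TMM shares belong beside the TMM counts of all lists below. Of 9 listed G protein-coupled receptors of heart, all were called between Tg-RKIP and FVB, 3 higher and 6 lower, with a median log2 fold change of -0.66. Adra1a, the alpha-1A adrenoceptor, was lowest at -3.14, and Adrb3, the beta-3 adrenoceptor, was highest at 3.08. Adrb1, the main beta-adrenoceptor of cardiomyocytes, was lower with TMM factors (log2 fold change -0.24, adjusted p = 0.000518) and higher with library size (0.13, adjusted p = 0.0317), so its direction depends on the scaling. With library size 4 receptors were higher and 5 lower. Under that scaling 79.7% of all genes were called between Tg-RKIP and FVB, and 78.6% of those called were higher. These shares also belong beside the library-size counts of the lists below. In the group labelled Tg-GRK2, 4 of 9 receptors were higher than in FVB and 2 lower, and Adrb3 was highest at 2.55.

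Of 14 genes of arrestin-dependent endocytosis, Tg-RKIP had 7 higher and 2 lower against FVB, with a median of 0.11. Dnm1, a dynamin that pinches off vesicles, was at 0.68, and the small AP2 subunit Ap2s1 was at 0.66, whereas Mdm2, a ubiquitin ligase that acts on beta-arrestin 2, was at -0.38. With library size 12 of the 14 were higher and 0 lower, where 79.7% of all genes were called and 78.6% of those called were higher. Only Ap2a2, an AP2 subunit, was called in the group labelled Tg-GRK2 (log2 fold change 0.09, adjusted p = 0.0147). Of 9 tested regulators and partners of GRKs, 5 were higher and 3 lower in Tg-RKIP, with Pebp1, the transgene, at 4.81 and Cav3, the muscle caveolin, at -0.75, and with library size 7 were higher and 1 lower. In the group labelled Tg-GRK2, 2 were higher and 2 lower, from Pebp1 at -0.07 to Git1, a GRK-interacting Arf GTPase-activating protein, at 0.17. Rcvrn, which binds the visual kinase Grk1, was not tested.

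Of 5 tested alpha-arrestins, which are adaptors of ubiquitin ligases, Tg-RKIP had 3 higher and 1 lower against FVB, from Arrdc3 at -0.26 to Arrdc1 at 0.64. With library size all 5 were higher, where 79.7% of all genes were called and 78.6% of those called were higher. Only Txnip was called in the group labelled Tg-GRK2, at 0.48. The visual kinase Grk1 and the visual arrestins Sag and Arr3 were below the expression filter, with a summed level of 0.146 to 0.589 TPM in all libraries.

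Markers of cell types also differed between Tg-RKIP and FVB, where 73.9% of all genes tested were called. Of 9 macrophage markers all 9 were higher, with a summed level of 758 to 767 TPM in Tg-RKIP, 332 to 349 TPM in the group labelled Tg-GRK2 and 296 to 305 TPM in FVB. Of 7 fibroblast markers all 7 were higher, at 2362 to 2364 TPM, 1047 to 1062 TPM and 948 to 974 TPM. All 9 lymphocyte markers, 6 adipocyte markers, 5 erythroid markers and the 4 tested neutrophil markers were higher, 4 of 6 smooth muscle and pericyte markers were higher and 2 lower, and 4 of 7 endothelial markers were higher and 3 lower. The labelled tissue was borne out by 8 cardiomyocyte markers, none of which was at 0, with a summed level of 51055 to 51906 TPM in Tg-RKIP, 50118 to 51767 TPM and 52503 to 53015 TPM. Of these 7 were lower in Tg-RKIP with TMM factors, but 3 were higher and 5 lower with library size. Airway markers summed to 55.3 to 57.7 TPM in Tg-RKIP and 138 to 146 TPM in the group labelled Tg-GRK2, while Scgb1a1, Scgb3a2 and Sftpc were at 0 in all FVB libraries, which held 0 to 0.0739 TPM. The part of these cell types in the differences of Grk5, Arrb2, Arrb1 and Grk3 was not tested.

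In the group labelled Tg-GRK2, in which Arrb1 and Grk2_5 were called, 4 of 9 macrophage markers, 5 of 7 fibroblast markers, 2 of 9 lymphocyte markers, 4 of 6 adipocyte markers, 1 of 4 tested neutrophil markers and 5 of 5 erythroid markers were higher than in FVB with TMM factors, with none of them lower. Of all genes tested, 12.2% were called higher and 12.2% lower in this comparison. Of the endothelial markers 1 was higher and 3 lower, of the smooth muscle and pericyte markers 1 was higher and 3 lower, and of the cardiomyocyte markers 2 were higher and 6 lower. Their part in these results was not tested.

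Genes with a profile most like that of a member were named by the smallest distance between centred log2 counts over the 9 libraries, among 14072 candidates. They were Npc2 and Srpx2 for Grk5 (both r = 0.997), Atp11a and Oxsm for Grk3 (both r = 0.997), and Ap2s1 (r = 0.992) and Pid1 (r = 0.989) for Arrb2. For Arrb1 they were Eipr1 (r = 0.975) and Gcc1 (r = 0.965), and for Grk4 Abcd4 (r = 0.959) and Dus3l (r = 0.954). For Grk6 they were Patz1 (r = 0.919) and Rasip1 (r = 0.871), and for Grk2 Rnf19b (r = 0.840) and Kalrn (r = 0.790). Ap2s1, the small subunit of the AP2 adaptor that beta-arrestins bind, is also 1 of the 14 endocytosis genes above. These r values describe 9 libraries of 3 groups that share their group means, depth and composition, and carry no test.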

How the data were processed

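Total RNA of 9 hearts was sequenced as single reads of 50 bases from fragmented mRNA with random hexamer priming. The authors deposited, per transcript and library, counts of reads without normalisation, and TPM values, which are counts divided by transcript length and rescaled to a fixed sum. TPM recomputed from the counts differed by at most 5.50e-06. Aligner and counter are not given in the sources used here. The submitters' processing notes name GRCm39. Groups and replicate numbers came from the labels, the replicates were taken as separate hearts, and 0 sample columns were left unused.

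Counts and TPM were summed per gene name. The test of the read counts was edgeR 4.0.16 under R 4.3.3 (filterByExpr, TMM, glmQLFit and glmQLFTest, all 9 libraries, a mean per group). Alternatives were DESeq2 1.42.0 and limma 3.58.1 on log2(TPM + 0.1) or log2(TPM + 1), where a gene had to reach 1 TPM in 3 libraries. Fold changes on log2(TPM + pseudocount) understate changes of low genes. Transcript usage was tested with diffSpliceDGE. Ratios were tested with SciPy 1.17.1, and the functions were tested on simulated data. The 9 within-group pairs of libraries differed by more than sampling noise (median ratio 1.37 to 1.52), so none was a copy of another. This check cannot tell separate hearts from repeat libraries of the same RNA, and each library was counted as 1 replicate. The common biological coefficient of variation was 2.86%, and the p-values of edgeR and the shares of genes called rest on this small spread.

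Named were all 7 members, their transcripts with at least 5% of the gene's TPM (22, those called and examples of the others), the 2 genes most like each member (leaving out Gm and Rik names) and the extremes of each list (1 is not reported here), while Ap2s1, Ap2a2 and Adrb1 were added after their values were seen. Members and lists were chosen with earlier results of these data known. Alternatives were other scalings, filters, tests, a replicate block, a fit of 2 groups, a minimum fold of 1.5, the most abundant transcript and leaving out each library. The lists were also computed under other scalings, an alternative added after the data were seen. Protein sequences were not used here.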

Additional observations from a re-analysis of the deposited data

How the results depend on the processing

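Grk3 and Grk5 kept their direction and their call between Tg-RKIP and FVB under each alternative run. In that comparison Grk2 was called with library size (log2 fold change 0.40), without mitochondrially encoded reads (0.20), on log2(TPM + 0.1) with or without the filter (0.42), on log2(TPM + 1) (0.41) and by its most abundant transcript (0.13). Grk6 was called at 0.50, 0.30, 0.53 and 0.49 under the same 4 scalings, with at least 100 reads (0.16) and in a fit of only the 2 groups (0.13). Grk4 lost its call with DESeq2 (0.42), limma without filter (1.07), no count filter (0.41), a fold of at least 1.5 (0.42) and the most abundant transcript (1.02). Arrb1 and Arrb2 lost theirs with the fold of at least 1.5 (0.30 and 0.71) and the most abundant transcript (0.30 and 0.97), and these settings called 2 and 3 members, beside 23.6% and 57.4% of all genes.

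Between the libraries labelled Tg-GRK2 and FVB, Arrb1 lost its call with DESeq2 (0.14), limma without filter (0.19), the fold of at least 1.5 (0.13) and the most abundant transcript (0.60), which left 0 members called. In the same order, these settings called 18.6%, 3.69%, 1% and 11% of all genes. The direction turned for Grk4 on log2(TPM + 0.1) with or without filter (-0.084), log2(TPM + 1) (-0.053) and the most abundant transcript (-0.60), for Arrb2 under the same settings (0.12, 0.11 and 0.18) and for Grk2 by its most abundant transcript (-0.10). Without a count filter 0 member transcripts were called, and the share of all transcripts was not computed under this setting.

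Between Tg-RKIP and Tg-GRK2, library size, no mitochondrially encoded reads, log2(TPM + 0.1) with or without filter and log2(TPM + 1) called 7 members, where they called 80.3%, 77.1%, 80.4% (26.3% without filter) and 80.8% of all genes. There Grk2 turned direction (0.33, 0.14, 0.42 and 0.40), as it did with at least 100 reads (0.0053) and by its most abundant transcript (0.23), and Grk4 (0.70, 0.51, 1.15 and 0.78) and Grk6 (0.41, 0.22, 0.34 and 0.31) gained a call. By the most abundant transcript Grk6 (-0.19) and Arrb1 (-0.30) turned and Arrb2 (0.80) lost its call, and Arrb1 lost its call with the fold of at least 1.5 (0.17). DESeq2 called 8 member transcripts, Arrb1_6, Grk2_6 and Grk6_7 beside the 5 called by edgeR. The share of all transcripts that DESeq2 called was not computed.

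Ratios from the most abundant transcripts gave log2 differences for Tg-RKIP against FVB of 0.89 (Grk5 to Grk2), -0.97 (Grk3 to Grk2), 0.82 (Grk6 to Grk2) and -0.71 (Arrb1 to Arrb2), for Tg-GRK2 against FVB of 0.026 (Grk5 to Grk2, turned) and 1.19 (Grk6 to Grk2), and for Tg-RKIP against Tg-GRK2 of 0.86, -1.19 and -0.37 for the first 3. Reads in place of TPM gave 0.075 for Grk6 to Grk2 between Tg-RKIP and Tg-GRK2 and -0.41 for Arrb1 to Arrb2 between Tg-RKIP and FVB. Arrb1 to Arrb2 was not run by the most abundant transcript against Tg-GRK2, where 1 or more libraries had 0 reads.

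Leaving out 1 library gave, for Tg-RKIP against FVB, -0.013 to 0.057 for Grk2, 0.35 to 0.48 for Grk4, 0.086 to 0.17 for Grk6 and 0 to 1 members with changed usage. For Tg-GRK2 against FVB it gave 0.093 to 0.16 for Grk3, 0.10 to 0.16 for Arrb1, -0.10 to 0.033 for Arrb2, -0.12 to 0.038 for the ratio of Grk5 to Grk2, 0 to 2 members called, 0 to 1 member transcripts called and 0 to 1 with changed usage. Between Tg-RKIP and Tg-GRK2 it gave -0.057 to 0.0033 for Grk2 and 1 to 3 members with changed usage. Shares of all genes or transcripts called were not computed for the fits without 1 library. The causes of these changes were not tested.

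Deviations of same-numbered libraries correlated only between -0.041 and 0.042, so the replicate numbers were not treated as pairs. In Tg-GRK2 against FVB every library correlated best with its own number, at 0.0062 to 0.021. That held only for replicate 2 in Tg-RKIP against FVB and only for replicate 1 between Tg-RKIP and Tg-GRK2. With the replicate number as a block, 5, 1 and 4 members were called in the 3 comparisons, where 73.5%, 23.6% and 74.1% of all genes were called. Of the member transcripts 4, 1 and 5 were called, and the share of all transcripts was not computed under this setting. The log2 fold change of Grk4 between Tg-RKIP and FVB was 0.42 with the block (edgeR adjusted p = 0.0381). Depth limits Grk4, at 36 to 93 reads a library, and the minor transcripts.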
